A study of Mus musculus with 12 samples.

Results

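The 9 genes described here are listed as germ cell RNA-binding and translation control genes: Ybx2, Papolb, Ddx25, Boll, Tarbp2, Dazl, Elavl1, Cpeb1 and Msi1. They encode proteins that bind, store, export or re-tail messenger RNA. Not all are confined to germ cells: Msi1 is known in the mouse testis from Sertoli cells, and Elavl1 is widely expressed. The 9 genes were chosen by name as a functional group, with earlier results of these data known, and found through their NCBI Gene IDs. All 9 are among the 22221 rows of the table. Expression was measured by RNA sequencing of testes of ICR mice, an outbred stock, in 12 libraries that form 4 groups of 3. Mice of the IMA10, IMC and Sa groups had been given busulfan once, when 3 weeks old. Busulfan is an alkylating agent toxic to proliferating germ cells. IMA10 mice were then given gut microbiota taken from mice dosed with alginate oligosaccharide (spelled Aligina Oligosaccharide in the labels) at 10 mg/kg body weight. IMC mice were given gut microbiota from donors that had water, and Sa mice were given saline. Con mice were untreated, and their age is not given. The microbiota treatment lasted 2 weeks, and testes were collected 3 weeks after it. The series text speaks of cultured testis without naming a culture step, and no label states that replicates are different animals. The p-values therefore measure only the spread between these libraries, which may be technical.

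Germ cells make many messages well before the protein is needed, because transcription stops when the spermatid nucleus condenses. RNA-binding proteins of spermatocytes and round spermatids keep such messages in a silent store, and release comes with changes in the poly(A) tail and in the proteins that sit on the 3′ untranslated region. Earlier in the lineage, DAZ-family, CPEB and Musashi proteins set which messages are translated in spermatogonia and at entry into meiosis.

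Values are the authors' FPKM, which divide fragments by transcript length and by the library total. Read depth is unknown, so no counting interval can be given. IMA10 replicate 3 stood apart from the rest of its group. Along principal component 1 (88.6% of the variance) it lay at -81.1, with IMA10 replicates 1 and 2 at 127.6 and 99.0 and the Con libraries between -167.4 and -161.2. Results are therefore given with and without it. The choice came from the same values that are tested, so adjusted p without this library describe that fit and are not an independent test. In the table header the Con libraries are named by a different prefix than all others, and an effect of batch and an effect of busulfan cannot be told apart. Summed spermatocyte markers (6 genes) ranged from 108.1 to 3597 FPKM in IMA10, 435.4 to 1045 in IMC, 744.3 to 1397 in Sa and 3855 to 3911 in Con. Summed Sertoli cell markers (7 genes) ranged from 2180 to 12909 FPKM in IMA10, 8540 to 10185 in IMC, 6748 to 8339 in Sa and 385.0 to 461.7 in Con. Testicular markers were thus present in every library, while the epididymal markers Crisp1 and Adam7 stayed at or near 0, with summed values of at most 0.67 FPKM. In whole tissue, fewer cells of a type and less RNA per cell cannot be told apart.

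Sequence elements that these proteins are known to read are shown with 1 known message each, from the reference genome GRCm38 with GENCODE vM21 transcripts. The ICR stock may differ from this reference. Capitals mark the element, and each run is 28 bases of a 3′ untranslated region, written 5′ to 3′. The first is the Y-box recognition sequence (TCCATCA) in Prm1, a protamine message stored by Ybx2. Next come the U-rich DAZL element (TTGTTT) in Sycp3 and the cytoplasmic polyadenylation element (TTTTAT) in Sycp1, messages for synaptonemal complex proteins that DAZL and CPEB1 are known to control.
Prm1 (chr16:10796447-10796474, minus strand): atagcaagTCCATCAaaactcctgcgtg
Sycp3 (chr10:88473166-88473193, plus strand): agggttttTTGTTTGTTTGTTTtaatag
Sycp1 (chr3:102818627-102818654, minus strand): atctgaatTTTTATtgtattcagatact
Within the last 150 bases of the 3′ untranslated region, read on the message strand, the Y-box recognition sequence was found in 0.78% of 21670 transcripts, 1 per gene. The shares were 15.2% for TTGTTT, 16.6% for TTTTAT and 63.2% for the poly(A) signal AATAAA. Of the 22 listed messages reported as bound or controlled by these proteins, 1 held the Y-box sequence, 3 the DAZL element and 5 the polyadenylation element. A match is a description of letters and not a binding site.

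Promoters of Ybx2, Papolb and Ddx25, the members with the most similar profiles across libraries, are shown because these genes moved together. RefSeq promoter windows of assembly GRCm38.p6 matched 8 of the 9 members by symbol. Each run is the 250 bases before the annotated start, on the strand of the gene, with CCAAT boxes (CCAAT on either strand) in capitals.
Ybx2 (chr11:69935649-69935898, plus strand): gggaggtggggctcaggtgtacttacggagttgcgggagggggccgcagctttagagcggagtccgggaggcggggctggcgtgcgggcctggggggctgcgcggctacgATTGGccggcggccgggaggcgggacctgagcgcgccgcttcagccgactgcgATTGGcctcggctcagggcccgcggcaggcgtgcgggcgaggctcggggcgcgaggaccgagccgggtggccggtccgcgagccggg
Papolb (chr5:142530077-142530326, minus strand): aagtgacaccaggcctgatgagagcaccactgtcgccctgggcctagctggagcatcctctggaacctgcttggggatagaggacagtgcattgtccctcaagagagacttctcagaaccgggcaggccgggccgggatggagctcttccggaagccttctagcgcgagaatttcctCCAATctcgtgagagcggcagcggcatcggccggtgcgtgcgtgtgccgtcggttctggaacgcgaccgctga
Ddx25 (chr9:35558471-35558720, minus strand): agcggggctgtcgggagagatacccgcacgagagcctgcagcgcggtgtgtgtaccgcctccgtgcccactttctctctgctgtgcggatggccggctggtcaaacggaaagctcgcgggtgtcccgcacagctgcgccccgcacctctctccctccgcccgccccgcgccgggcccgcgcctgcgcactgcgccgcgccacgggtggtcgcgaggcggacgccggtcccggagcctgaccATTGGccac
A CCAAT box was present in 6 of the 8 member promoters and in 34.5% of 27025 promoters of this length. Ybx2 held 2 copies, and Papolb and Ddx25 held 1 each. The cAMP response element core (TGACG) was present in 3 of 8, against 17.8% of all promoters, and the E-box (CACGTG) in 1 of 8, against 6.04%. These motifs were chosen after the promoters had been seen.

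**Figure D1:**
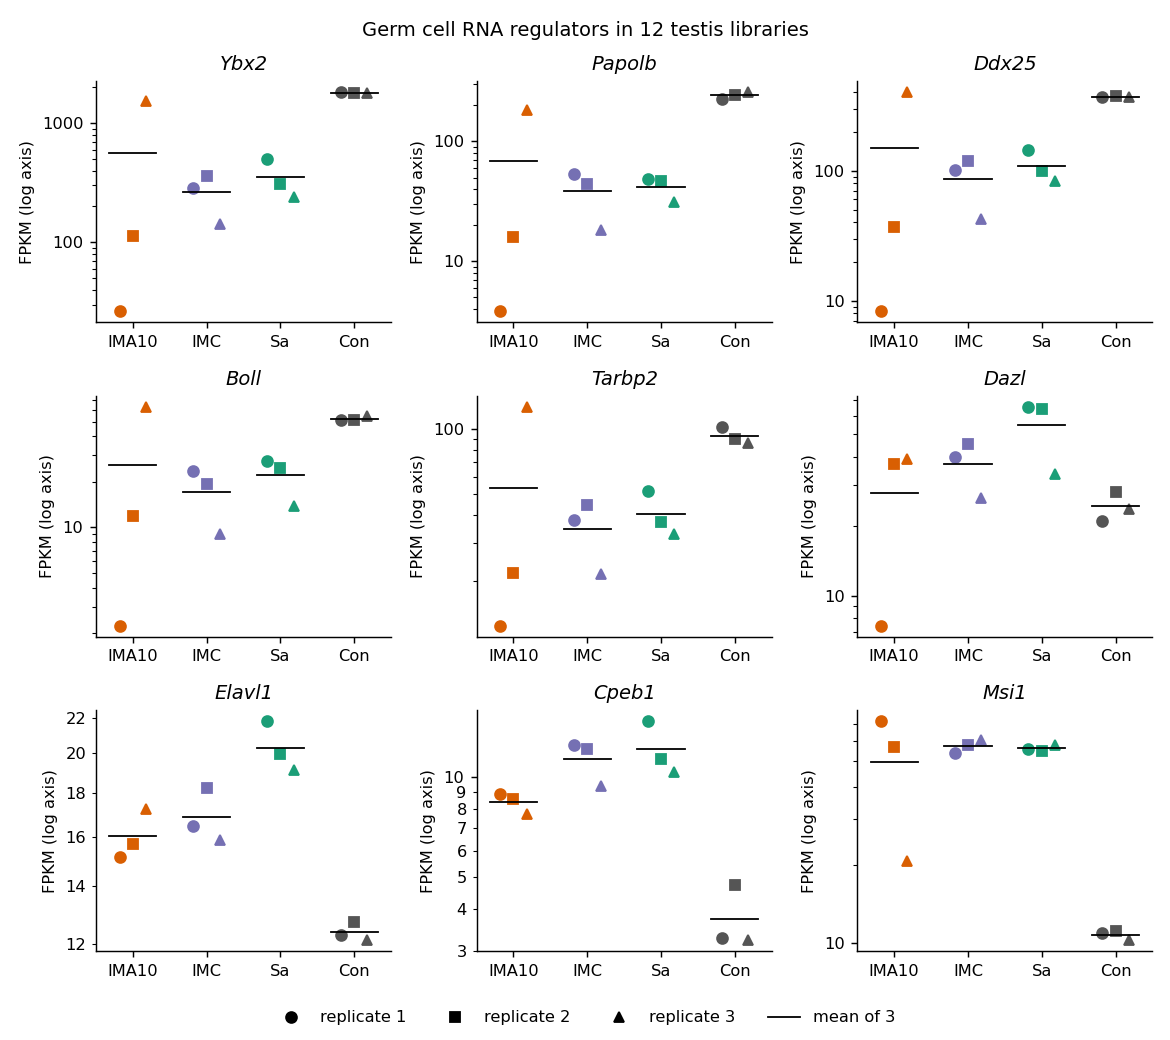
FPKM of the 9 genes (log axis, a separate scale in each panel) in the IMA10, IMC, Sa and Con libraries, with replicates as symbols and the mean of 3 as a line. Ybx2, Papolb, Ddx25, Boll and Tarbp2 lie below every Con library in 8 or 9 of the 9 busulfan libraries, and Msi1, Elavl1 and Cpeb1 lie above every Con library in all 9.

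The group divided into genes below the untreated level after busulfan (Ybx2, Papolb, Ddx25, Boll and Tarbp2), genes above it (Msi1, Cpeb1 and Elavl1), and Dazl between them. In Sa testes, 3 of 9 members rose and 1 fell, in limma's test across all genes with an adjusted p under 0.05 as the threshold. Of all 15472 genes tested 52.0% rose and 19.2% fell in that comparison. In IMC testes 3 members rose and 2 fell, where 50.8% of all genes rose and 23.3% fell. In IMA10 testes 3 rose and 3 fell, where 47.7% of all genes rose and 23.9% fell. When IMA10 replicate 3 was left out, 3 members rose and 5 fell in each of these comparisons, where 55.7% of all genes rose and 30.0% fell in Sa, 53.7% and 32.2% in IMC, and 51.6% and 35.0% in IMA10. By overlap alone, 4 members lay above and 5 below every Con library in Sa, where 56.9% and 31.3% of all genes did. In IMC the numbers were 3 and 5, beside 55.1% and 33.2% of all genes, and in IMA10 they were 3 and 2, beside 49.3% and 18.1%. The 3 comparisons share the Con libraries and are not independent.

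That balance depends on the scaling of the libraries. The median log2 difference from Con of all genes was 0.60 in Sa, 0.52 in IMC and 0.41 in IMA10. Median-of-ratios scaling moved these medians by -0.63, -0.56 and -0.43. With it, 5831 genes rose and 6060 fell in Sa, against 8052 and 2963 on the FPKM as deposited, and 2 members rose and 4 fell. Quantile normalization gave 5699 and 4514 genes, and 2 members up and 0 down. In IMC, median-of-ratios scaling gave 6027 genes up and 6276 down, against 7862 and 3603. In IMA10 it gave 5714 up and 5736 down, against 7383 and 3694.

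Ybx2 (Gene ID 53422), the germ cell Y-box protein that coats and stores messages in spermatocytes and round spermatids, was the most abundant member in every library except IMA10 replicate 1. It had 26.5, 113.4 and 1537 FPKM in the IMA10 libraries (replicates 1 to 3), 284.7, 360.1 and 142.1 in IMC, 503.6, 306.9 and 238.6 in Sa, and 1821, 1770 and 1779 in Con. All 9 busulfan libraries were below the lowest Con library. The log2 difference from Con was -3.40 ± 1.12 in IMA10 (SE, adjusted p = 0.0207), -2.87 in IMC (adjusted p = 0.0394) and -2.42 in Sa (adjusted p = 0.0734), each with the same SE, so Ybx2 fell in IMA10 and IMC and did not pass in Sa. The IMC call was lost when any single Con, IMC or Sa library was left out (adjusted p of up to 0.118), and the IMA10 call without IMA10 replicate 1 or 2 or Con replicate 1 or 3 (up to 0.0684). With IMA10 replicate 3 left out all 3 passed, with -5.0 ± 0.57 in IMA10 (adjusted p = 1.5e-05), -2.87 ± 0.51 in IMC (0.0004) and -2.42 ± 0.51 in Sa (0.00127).

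Papolb (56522), the testis poly(A) polymerase that lengthens tails in the cytoplasm of round spermatids, tracked Ybx2. Its FPKM were 3.83, 15.97 and 184.5 in IMA10, 53.5, 44.5 and 18.3 in IMC, 48.6, 46.4 and 31.0 in Sa, and 228.1, 242.2 and 258.9 in Con. Again no busulfan library reached the Con range. Papolb fell in all 3 comparisons, by 3.30 ± 1.03 in IMA10 (adjusted p = 0.0161), 2.75 ± 1.03 in IMC (0.0332) and 2.53 ± 1.03 in Sa (0.0469) on the log2 scale. The call in Sa is close to the threshold: its adjusted p ranged from 0.000602 (without IMA10 replicate 3) to 0.116 (without Sa replicate 3) when libraries were left out in turn, and the call held only without IMA10 replicate 1 or 3. The IMC call was lost without IMC replicate 2 or 3 or any Con library (up to 0.111), and the IMA10 call without IMA10 replicate 1 or 2 (up to 0.0566). The IMA10 difference was -4.75 ± 0.53 without IMA10 replicate 3.

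Ddx25 (30959), the gonadotropin-regulated DEAD-box helicase that carries messages out of the nucleus of round spermatids, had 8.30, 36.6 and 403.0 FPKM in IMA10, 101.2, 117.7 and 42.1 in IMC, 144.1, 99.9 and 83.0 in Sa, and 367.4, 377.9 and 366.3 in Con. IMA10 replicate 3 alone was above the Con range, and the other 8 busulfan libraries were below it. The log2 difference was -2.83 ± 1.05 in IMA10 and passed (adjusted p = 0.0339), while -2.20 ± 1.05 in IMC (0.0786) and -1.79 ± 1.05 in Sa (0.143) did not. The IMA10 call reached an adjusted p of 0.121 when single libraries were left out. The values without IMA10 replicate 3 were -4.31 ± 0.56 in IMA10, -2.20 ± 0.50 in IMC and -1.79 ± 0.50 in Sa, with adjusted p of 4.06e-05, 0.00207 and 0.00707.

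Boll (75388), the DAZ-family protein needed for spermatid development in the mouse, had 2.24, 11.9 and 63.0 FPKM in IMA10, 23.5, 19.2 and 9.09 in IMC, 27.6, 24.8 and 14.0 in Sa, and 51.5, 51.6 and 54.3 in Con. Tarbp2 (21357), a double-stranded RNA binding protein that partners Dicer and is needed for protamine translation, had 12.5, 21.8 and 126.2 FPKM in IMA10, 38.2, 44.5 and 21.6 in IMC, 52.0, 37.3 and 33.0 in Sa, and 102.0, 89.5 and 86.1 in Con. Both followed the same pattern as Ddx25, with only IMA10 replicate 3 above the Con range and 8 of 9 busulfan libraries below it. Neither passed the test in any comparison with Con. The log2 differences in IMA10, IMC and Sa were -1.94, -1.64 and -1.26 for Boll (SE 0.85, adjusted p = 0.06, 0.0987 and 0.194). They were -1.46, -1.44 and -1.19 for Tarbp2 (SE 0.67, adjusted p = 0.0701, 0.0704 and 0.129). All 6 passed without IMA10 replicate 3, at -3.04 ± 0.55, -1.64 ± 0.49 and -1.26 ± 0.49 for Boll (adjusted p = 0.000422, 0.00986 and 0.0341) and -2.41 ± 0.32, -1.44 ± 0.28 and -1.19 ± 0.28 for Tarbp2 (adjusted p = 4.28e-05, 0.000788 and 0.00282). Of the 50-base windows in Tarbp2 transcripts 14.3% also occur in the predicted genes Gm18584 and Gm18561, so part of its reads may have been counted elsewhere or shared.

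**Figure D2:**
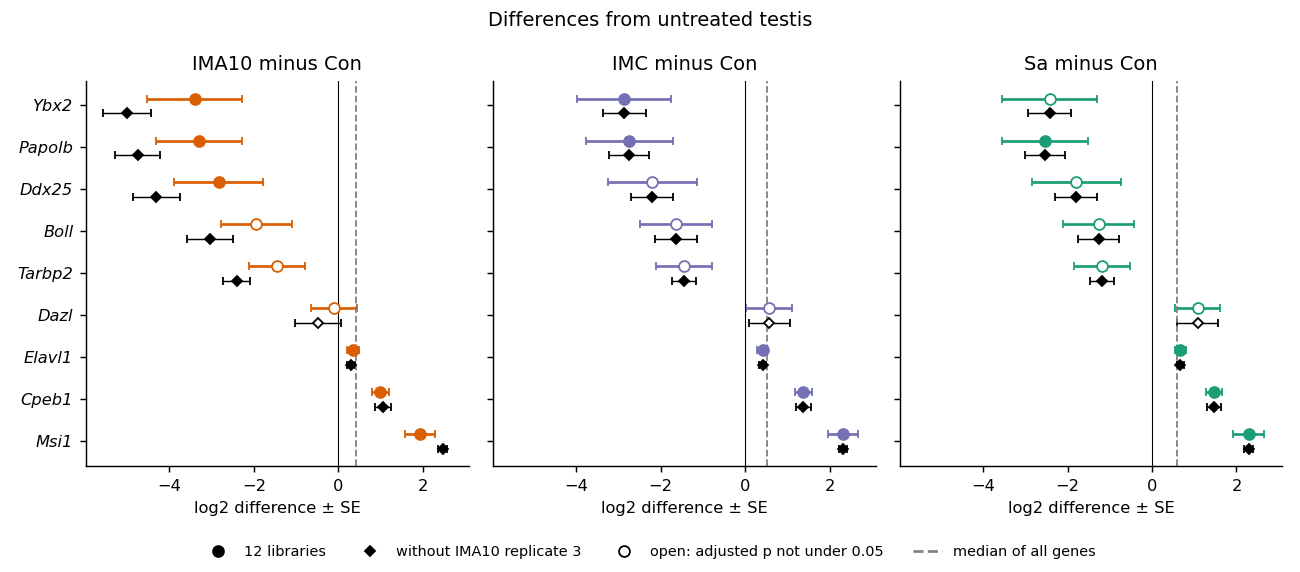
Log2 differences from Con (limma, ± SE) for each member in IMA10, IMC and Sa, from all 12 libraries (circles) and without IMA10 replicate 3 (diamonds), with open symbols where the adjusted p was not under 0.05. In all 3 panels the values of Ybx2, Papolb, Ddx25, Boll and Tarbp2 lie left of 0 and those of Msi1, Cpeb1 and Elavl1 right of it, and Elavl1 lies close to the dashed median of all genes.

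Expressed as a percent of the Con mean, the 5 lower members differed in how much was left. In IMA10 replicate 1 Ybx2 was at 1.48%, Papolb at 1.58%, Ddx25 at 2.24%, Boll at 4.27% and Tarbp2 at 13.5%. In IMA10 replicate 2 the values were 6.33%, 6.57%, 9.88%, 22.8% and 23.6% for the same genes. IMA10 replicate 3 had 85.9%, 75.9%, 108.8%, 120.1% and 136.4%. The order Ybx2 or Papolb lowest and Boll or Tarbp2 highest held in each of the 9 busulfan libraries. In Sa, for example, Ybx2 was at 28.1%, 17.2% and 13.3% and Tarbp2 at 56.2%, 40.4% and 35.6%.

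Summed markers of later germ cells moved with these genes. Summed spermatocyte markers in IMA10 replicates 1 to 3 were at 2.78%, 9.75% and 92.5% of the Con mean, and summed round spermatid markers at 2.04%, 5.16% and 63.9%. Elongating spermatid markers (5 genes) were at 0.0665%, 0.123% and 8.12% in the same libraries. IMA10 replicate 3 thus had Ybx2, Ddx25, Boll, Tarbp2 and the summed spermatocyte markers at 85.9% of Con or more. Papolb was at 75.9%, summed round spermatid markers at 63.9% and summed elongating markers at 8.12%. Single spermatocyte markers differed there: Pgk2 had 186.9 FPKM against a Con mean of 593.6, and Ldhc 2445 against 2507. Sycp1, Sycp3, Piwil1 and Hspa2 were above their Con means in that library. In Sa, spermatocyte markers were at 35.9%, 26.1% and 19.2% and round spermatid markers at 20.2%, 13.2% and 10.7% of the Con mean. The spermatocyte sum was carried by Ldhc, Hspa2 and Pgk2, at 621.1, 239.9 and 53.1 FPKM in Sa and 2507, 584.1 and 593.6 in Con. The meiotic chromosome genes Sycp1 and Sycp3 did not pass in Sa, at 22.8 and 69.2 FPKM in Sa and 21.4 and 73.7 in Con. Of the 4 differentiating spermatogonia markers 3 went the other way in Sa. Stra8 rose to 30.2 FPKM in Sa against 8.01 in Con, Sohlh1 to 6.77 against 2.12, and Kit by 2.37 ± 0.30 on the log2 scale, while Dmrtb1 was at 95.4 FPKM in Sa and 419.2 in Con and did not pass (adjusted p = 0.0975). The part of cell composition in the members' differences was not tested.

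**Figure D3:**
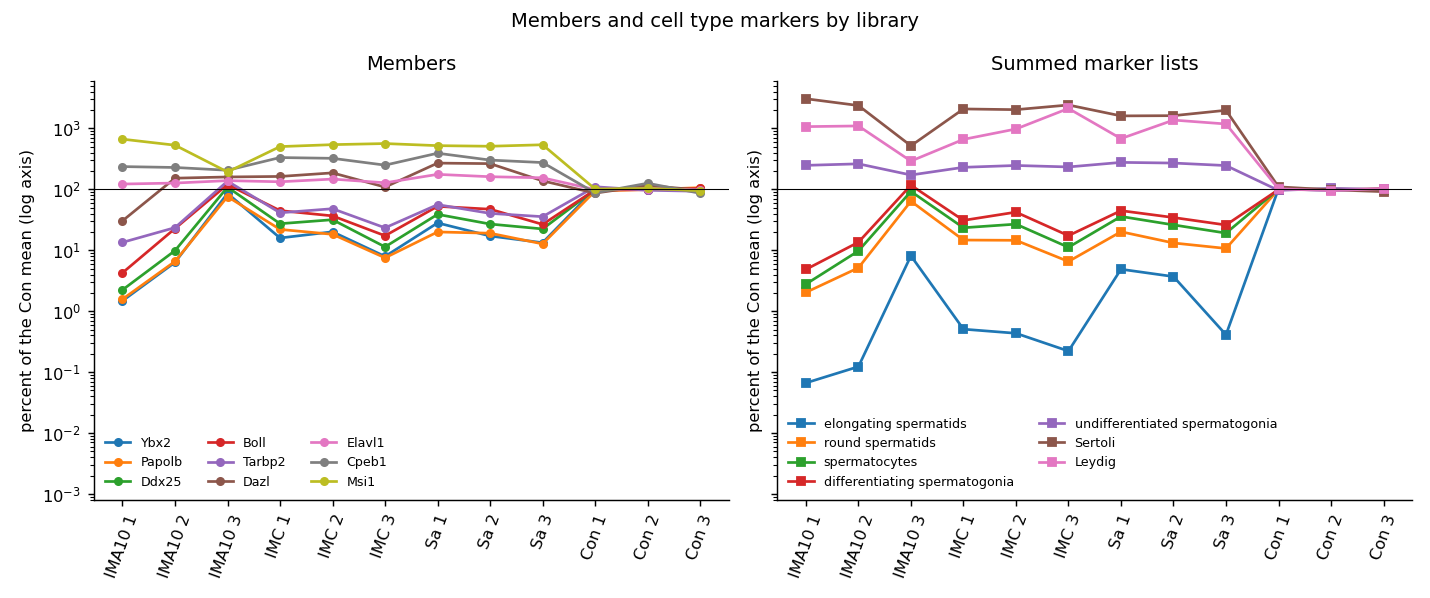
Percent of the Con mean (log axis) in each library for the 9 members (left) and for 7 summed marker lists (right). IMA10 replicate 3 lies at 75.9% or more of Con for the 5 lower members and at 92.5% for summed spermatocyte markers, but at 8.12% for summed elongating spermatid markers.

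Dazl (13164), the DAZ-family translation factor of spermatogonia and spermatocytes, did not follow its relative Boll. It had 7.43, 37.2 and 39.0 FPKM in IMA10, 39.7, 45.4 and 26.5 in IMC, 65.8, 64.5 and 33.6 in Sa, and 21.1, 28.2 and 23.8 in Con. Every Sa library was above every Con library, and 7 of the 9 busulfan libraries were above the Con range, with only IMA10 replicate 1 below it. The log2 difference was -0.11 ± 0.54 in IMA10 (adjusted p = 0.866), 0.57 ± 0.54 in IMC (0.351) and 1.08 ± 0.54 in Sa (0.0935), and none passed. In IMC the adjusted p was 0.0365 when only IMC and Con were fitted, and the difference was -0.13 with median-of-ratios scaling. In Sa the adjusted p was 0.00521 when only Sa and Con were fitted and 0.00743 without IMA10 replicate 1, and reached 0.616 across the alternatives. Summed undifferentiated spermatogonia markers (6 genes) were above Con in every busulfan library, at 277.2%, 270.3% and 246.0% of the Con mean in Sa. That sum was carried by Etv5, a gene also expressed in Sertoli cells, which rose by 2.84 ± 0.42 to 40.6 FPKM in Sa against 4.80 in Con, and by Id4, which did not pass (20.4 FPKM in Sa, 17.5 in Con). Zbtb16, Ret and Sall4 also rose in Sa. Gfra1 did not follow, at 1.58 FPKM in Sa and 2.56 in Con without overlap (adjusted p = 0.0994), and it fell in IMC and IMA10.

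Msi1 (17690), a Musashi translational repressor known in the mouse testis from Sertoli cells, had the largest rise. It had 71.5, 57.0 and 20.7 FPKM in IMA10, 54.0, 58.1 and 60.6 in IMC, 56.0, 54.7 and 57.9 in Sa, and 10.9, 11.1 and 10.2 in Con. All 9 busulfan libraries were above Con, and IMA10 replicate 3 was the lowest of them. Msi1 rose by 1.94 ± 0.36 in IMA10, 2.32 ± 0.36 in IMC and 2.29 ± 0.36 in Sa on the log2 scale (adjusted p = 0.00128, 0.000356 and 0.000418). Its rise in IMA10 was 2.47 ± 0.11 without IMA10 replicate 3. The call held under every alternative setting tried, with adjusted p of at most 0.0244. Summed Sertoli markers moved with it, at 3074%, 2378% and 519.2% of the Con mean in IMA10 and 1607%, 1621% and 1986% in Sa. That sum was carried by Clu, at 6101 FPKM in Sa and 352.3 in Con, and Inha, at 925.3 and 42.4. Every listed Sertoli marker rose in Sa, Clu by 4.11 and Inha by 4.41 on the log2 scale. The others rose by less, from 2.42 for Rhox5 to 3.64 for Amh. The part of Sertoli markers in the rise of Msi1 was not tested.

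Cpeb1 (12877), which binds cytoplasmic polyadenylation elements and is needed for meiotic prophase, was the least abundant member in Con. It had 8.86, 8.57 and 7.72 FPKM in IMA10, 12.5, 12.1 and 9.36 in IMC, 14.7, 11.3 and 10.3 in Sa, and 3.29, 4.72 and 3.23 in Con. The groups did not overlap with Con, and IMA10 replicate 3 lay close to its group. Cpeb1 rose by 1.00 ± 0.20 in IMA10, 1.38 ± 0.20 in IMC and 1.47 ± 0.20 in Sa (adjusted p = 0.00168, 0.000308 and 0.000352). The smallest rise in Sa under any alternative was 0.77, and every adjusted p in the 3 comparisons was at most 0.0241.

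Elavl1 (15568), HuR, a widely expressed protein that stabilises messages with AU-rich elements, had the narrowest range of the 9. It had 15.1, 15.7 and 17.2 FPKM in IMA10, 16.5, 18.2 and 15.9 in IMC, 21.8, 20.0 and 19.2 in Sa, and 12.3, 12.7 and 12.1 in Con. On the FPKM as deposited it rose by 0.35 ± 0.13 in IMA10, 0.42 ± 0.13 in IMC and 0.67 ± 0.13 in Sa (adjusted p = 0.0402, 0.0179 and 0.0014), but these rises were close to the median of all genes. With median-of-ratios scaling the differences were -0.18, -0.26 and -0.0859 and did not pass. Even as deposited, the IMA10 and IMC calls were lost in some fits with a library left out (adjusted p of up to 0.102 and 0.0667). A stretch of 204 exonic bases of Elavl1 overlaps Ccl25 on the opposite strand, and whether counting used strand is not stated.

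The busulfan groups could not be told apart by any member in the fit of all 12 libraries. None of the 9 genes passed in IMA10 minus Sa, IMA10 minus IMC or IMC minus Sa, where 0.0% of all genes did. At an unadjusted p under 0.05 there were 928, 328 and 134 genes in these comparisons, and 2, 0 and 0 members. Those 2 were Elavl1 and Cpeb1 in IMA10 minus Sa, at -0.32 ± 0.13 and -0.47 ± 0.20 (adjusted p = 0.77 and 0.772), each with no overlap between groups, where 7.17% of all genes were lower and 0.633% higher without overlap. Elavl1 was also lower without overlap in IMC minus Sa, where 6.02% of genes were lower and 3.32% higher, and Cpeb1 in IMA10 minus IMC, where 2.88% were lower and 0.478% higher. On the log2 scale all 9 members had a difference below 0 in IMA10 minus Sa and in IMA10 minus IMC. The member medians were -0.68 and -0.38, against all-gene medians of -0.19 and -0.14. By mean FPKM, Ybx2, Ddx25, Papolb, Tarbp2 and Boll were instead higher in IMA10 than in Sa or IMC, and the other members lower. Ybx2, for example, averaged 559.0 FPKM in IMA10, 349.7 in Sa and 262.3 in IMC.

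Leaving out IMA10 replicate 3 changed the picture for IMA10 minus Sa. With IMA10 replicates 1 and 2 only, 6 members fell below Sa, where 24.7% of all genes fell and 7.38% rose. The library left out was picked on these same values, so the adjusted p given next are not an independent test. Ybx2 fell by 2.57 ± 0.57, Ddx25 by 2.52 ± 0.56, Papolb by 2.22 ± 0.53, Boll by 1.78 ± 0.55, Tarbp2 by 1.23 ± 0.32 and Elavl1 by 0.37 ± 0.10 (adjusted p = 0.0139, 0.0141, 0.0159, 0.0352, 0.02 and 0.0202). No other left-out library gave a member call between busulfan groups. Against IMC, without the same library, no member passed (0.013% of all genes were lower and 0.0% higher), and the lowest adjusted p was 0.0731, for Ybx2, Ddx25 and Papolb. Leaving out IMA10 replicate 1 instead put Ybx2, Papolb, Ddx25, Boll and Tarbp2 above Sa, at log2 differences of 0.20 to 0.41 that did not pass, so the direction rests on single IMA10 libraries.

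Levels per transcript length can be compared between members, and the order changed after busulfan. In Sa testes Ybx2 averaged 349.7 ± 137.6 FPKM and Ddx25 109.0 ± 31.6, followed by Msi1 at 56.2 ± 1.6, Dazl at 54.6 ± 18.2, Papolb at 42.0 ± 9.6, Tarbp2 at 40.8 ± 10.0, Boll at 22.1 ± 7.2, Elavl1 at 20.3 ± 1.4 and Cpeb1 at 12.1 ± 2.3 (SD, n = 3). In Con testes the order was Ybx2 at 1790 ± 27.2 FPKM, Ddx25 at 370.5 ± 6.4, Papolb at 243.1 ± 15.4, Tarbp2 at 92.5 ± 8.4, Boll at 52.5 ± 1.6, Dazl at 24.4 ± 3.6, Elavl1 at 12.4 ± 0.3, Msi1 at 10.7 ± 0.5 and Cpeb1 at 3.75 ± 0.84. Msi1 thus stood next to last in Con and behind only Ybx2 and Ddx25 in Sa, where it overlapped Dazl within their spread. The neighbours Papolb and Tarbp2, and Boll and Elavl1, were also within their spread in Sa.

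In the same library 7 members, all but Ddx25 and Tarbp2, were then set against a chosen relative. Tarbp2 has a relative too, Prkra, with 97.7 FPKM in Sa and 11.3 in Con, but this pair was not among those chosen. Ratios are log2 of the member over its relative, each with 1 FPKM added. The library's scaling cancels only in a ratio with nothing added, so plain FPKM ratios were also taken, a choice made after the values were seen. Boll over Dazl was -1.38, -1.56 and 0.68 in IMA10, -0.73, -1.20 and -1.45 in IMC, -1.22, -1.34 and -1.21 in Sa, and 1.25, 0.85 and 1.16 in Con. Every busulfan library was thus below Con, and IMA10 replicate 3 was the only one in which Boll exceeded Dazl. The difference between the group means was -1.84 for IMA10, -2.21 for IMC and -2.34 for Sa.

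Papolb over Papola, the poly(A) polymerase of all cells, averaged -0.02 ± 0.46 in Sa and 3.16 ± 0.07 in Con (SD, n = 3), a difference of -3.18. In IMA10 it was -3.07, -1.59 and 2.60. Papola itself rose by 0.65 ± 0.20 in Sa (adjusted p = 0.0142), to 42.0 FPKM against 26.4 in Con. Ybx2 over Ybx1, the general Y-box protein, differed by -1.19 in Sa. Ybx1 also fell there, by 1.24 ± 0.49 (adjusted p = 0.042), with 379.0 FPKM in Sa and 886.0 in Con. Ybx2 over Ybx3, the other Y-box protein of the testis, differed by -0.32 with overlapping libraries. Ybx3 had 246.9 FPKM in Sa and 1046 in Con, at -2.10 ± 0.91 (adjusted p = 0.0599).

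Cpeb1 over Cpeb2, another CPEB protein, showed the widest change of any pair in Sa and IMC, while in IMA10 Papolb over Papola differed from Con by more (-3.85 against 3.75). It averaged -0.26 ± 0.15 in Sa and -3.95 ± 0.25 in Con, a difference of 3.69. IMA10 replicate 3, at -2.50, was again nearest to Con. Cpeb2 fell by 2.23 ± 0.75 in Sa (adjusted p = 0.0221). Cpeb1 over Cpeb4 differed by 1.64 in Sa, while Cpeb4 did not pass, at -0.17 ± 0.16 (adjusted p = 0.345). Msi1 over Msi2 averaged 2.68 ± 0.16 in Sa and -0.73 ± 0.11 in Con, a difference of 3.42, with Msi2 falling by 1.13 ± 0.20 (adjusted p = 0.000629). Elavl1 over Elavl2, a relative below 2.2 FPKM in every library, overlapped between Sa and Con, at 3.09 ± 0.28 and 3.04 ± 0.005. With nothing added it did not overlap, at 3.95, 3.25 and 4.11 in Sa and 4.33, 4.25 and 4.34 in Con, a difference of -0.54. For IMA10 against Con the added 1 FPKM worked the other way: the ratio was above Con without overlap, but at 5.66, 4.09 and 4.24 with nothing added it overlapped. This pair therefore has no firm direction.

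In all, 48 ratio comparisons were made (8 pairs in 6 comparisons). The ratio did not overlap with Con in 8 of 8 pairs for IMA10, 7 for IMC and 6 for Sa, and overlapped in all 8 pairs in each comparison between busulfan groups. A share over all gene pairs was not taken. Of all single genes, 56.9% lay above and 31.3% below every Con library in Sa. In IMC the shares were 55.1% and 33.2%, and in IMA10 49.3% and 18.1%. The counts are therefore not read as particular to these pairs. Plain ratios gave 7 pairs without overlap for each busulfan group against Con and 0 between busulfan groups, and the pair that changed sides was Elavl1 over Elavl2, in Sa and IMA10. Each pair without overlap reached p = 0.1 in the exact two-sided permutation test, the smallest that 3 against 3 libraries allow, and the lowest Benjamini-Hochberg value was 0.229, with and without the added 1 FPKM. No ratio therefore passed a threshold of 0.05.

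The wider machinery was read from 6 lists of 104 genes, of which 103 are in the table and 101 were tested. In Sa minus Con 40 rose and 25 fell, where 52.0% of all genes rose and 19.2% fell, with a median log2 difference of 0.21 against 0.60 for all genes, and without IMA10 replicate 3 the counts were 44 and 39. This balance turned round with median-of-ratios scaling (16 rose, 44 fell) and on the FPKM as deposited in IMA10 minus Con (26 rose, 32 fell), with 30 and 28 in IMC minus Con. Of the 26 CPEB, poly(A) and deadenylation genes 10 rose and 6 fell (median 0.26). Pabpc4, a poly(A)-binding protein, rose by 2.59 ± 0.37 to 21.2 FPKM in Sa against 2.69 in Con, and Paip2b, which holds poly(A)-binding protein off the tail, rose by 1.06 ± 0.16. Cpeb3 fell by 2.65 ± 0.14 to 4.12 FPKM in Sa against 31.0 in Con, and Tent5c, a non-canonical poly(A) polymerase, fell by 3.39 ± 0.68. The counts for this list were 13 and 10 without IMA10 replicate 3, and 3 and 12 with median-of-ratios scaling.

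Among the 10 Y-box, DAZ, Musashi, ELAV and CELF relatives 5 rose and 3 fell (median 0.10), and 2 and 5 with median-of-ratios scaling. Celf2 rose by 2.25 ± 0.41 and the DAZ-interacting Dazap2 by 1.60 ± 0.21, while Msi2 and the neuronal type Elavl4 fell, Elavl4 by 0.93 ± 0.13 to 0.183 FPKM in Sa against 1.25 in Con. Of 8 tested spermatogonial RNA regulators 6 rose and 0 fell (median 0.94), the same counts as without IMA10 replicate 3. With median-of-ratios scaling 3 rose and 1 fell, and as deposited 3 rose in IMC (median 0.50) and 2 in IMA10 (median 0.21), where 50.8% and 47.7% of all genes rose. Rbmx, a splicing regulator expressed in many cell types, rose by 2.08 ± 0.34, and Trim71, a repressor of messages in stem and progenitor cells, by 1.08 ± 0.22 at levels of 1.99 FPKM in Sa and 0.407 in Con. Nanos2 and Nanos3 in this list were below the filter of 1 FPKM in at least 3 libraries.

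The 24 meiotic and spermatid RNA-binding proteins gave 7 rises and 4 falls (median -0.52), and 8 and 9 without IMA10 replicate 3. With median-of-ratios scaling 2 rose and 9 fell. Samd4, a translational repressor, fell by 3.81 ± 0.71 to 4.99 FPKM in Sa against 79.0 in Con. Fxr1 fell by 2.18 ± 0.50, whereas its relative Fxr2 rose by 1.08 ± 0.16 and the helicase Ddx6, a core protein of P-bodies, by 1.24 ± 0.20. Of 12 listed RNA interference and double-stranded RNA genes 10 rose and 0 fell (median 1.01), where 52.0% of all genes rose and 19.2% fell. With median-of-ratios scaling 6 rose and 1 fell. In both IMC and IMA10 7 rose and 0 fell (medians 0.87 and 0.75). Dicer1, which cuts microRNA precursors, rose by 1.57 ± 0.18 to 8.54 FPKM in Sa against 2.22 in Con, and Ago2, its effector, by 1.20 ± 0.15. Tarbp2 itself was at -1.19 ± 0.67 in the same comparison.

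Of 22 messages reported as bound or controlled by these proteins 2 rose and 12 fell in Sa (median -2.33). Of all genes 52.0% rose and 19.2% fell there. The counts were 2 and 17 without IMA10 replicate 3, where 55.7% and 30.0% of all genes did, and 0 and 17 with median-of-ratios scaling. This list holds all the elongating spermatid markers and all the spermatocyte markers except Piwil1. It therefore repeats those marker sums in part and is not a separate result. Tssk6, a spermatid kinase, fell by 5.01 ± 0.89 to 9.60 FPKM in Sa against 272.5 in Con, and Ace, whose testis form is made in spermatids, by 2.59 ± 0.19. Hmgb2 rose by 0.84 ± 0.21 and Tex19.1 by 1.40 ± 0.45. Prm1, the message shown with its Y-box sequence, had 5.47, 7.09 and 880.1 FPKM in IMA10, 44.1, 35.6 and 17.6 in IMC, 483.8, 366.6 and 27.9 in Sa, and 11022, 10299 and 10602 in Con. Prm1 thus overlapped between IMA10 and Sa, and all 9 busulfan libraries were below Con, including IMA10 replicate 3, where Ybx2 was at 85.9% of Con. Sycp3 and Sycp1, shown for the DAZL and polyadenylation elements, did not pass in Sa, at -0.17 ± 0.73 (adjusted p = 0.836) and 0.05 ± 0.65 (adjusted p = 0.944).

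**Figure D4:**
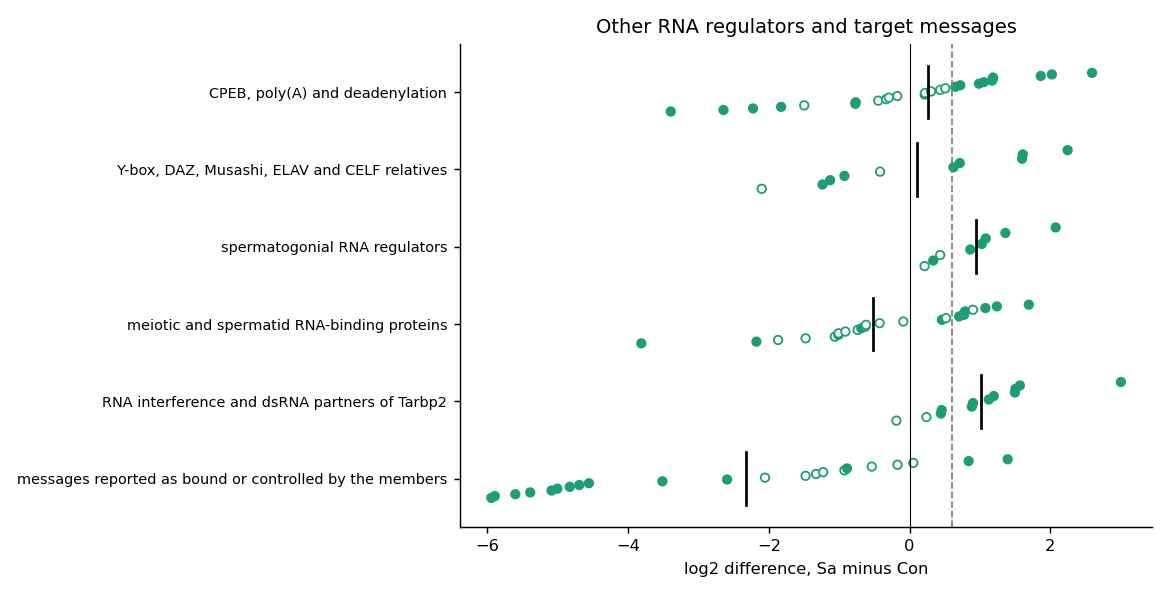
Log2 difference (Sa minus Con) of each tested gene in the 6 lists, filled where the limma adjusted p was under 0.05, with a black bar at each list's median and a dashed line at the median of all genes (0.60). The messages reported as bound or controlled by the members lie furthest left (median -2.33), and the RNA interference genes have the highest median (1.01). Those messages include all the elongating spermatid markers and all the spermatocyte markers except Piwil1.

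Likeness of profiles was measured as the root-mean-square distance between centred log2 profiles over the 12 libraries, among 10624 genes with at least 5 FPKM on average in a group. Within the group Ybx2 and Papolb were closest (0.24), followed by Ddx25 with Ybx2 (0.29) and with Papolb (0.31), and Ybx2 and Msi1 were farthest apart (2.74). Outside it, the nearest profiles to Ybx2 were Smim24, Fam229b and Pgam2 (0.09 to 0.12), and those to Papolb were Adam32, Adam5 and Spata4. Ddx25 lay nearest to Syce1, Syngr4 and Mroh4, Boll to Nuf2, Cox7b2 and Spdya, and Tarbp2 to Chrac1, Meaf6 and Strada. Dazl lay nearest to Scml2, Hells and Meiob, of which Scml2 averaged 6.16 FPKM in IMA10, 9.84 in IMC, 13.7 in Sa and 5.09 in Con. Msi1 lay nearest to Arrdc1, Nisch and Mafg, Cpeb1 to Nsun5, Ints5 and Cinp, and Elavl1 to Pwp1, Ap1g1 and Sptan1. All these profiles share the same 12 libraries and their scaling.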

How the data were processed

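RNA sequencing of mouse testis was deposited as 1 table of FPKM values per gene and library, per the file headers and labels. How the authors aligned reads and counted fragments, with which build and annotation, is not given in the sources used here. Counts were not used here, and low values showed no common step of 1 read (the most frequent ratio held at most 1.44% of low genes), so depth is unknown and precision rests on 3 libraries per group. Of 22221 rows 20288 carry NCBI Gene IDs, of which 20141 were given symbols from a RefSeq gene table (GRCm38.p6).

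Values were tested as log2(FPKM + 1) for the 15472 genes that reached 1 FPKM in 3 or more libraries. This scale understates changes of low genes. With limma 3.58.1 in R 4.3.3, group means were fitted over all 12 libraries with a trend of variance on level, and Benjamini-Hochberg adjustment ran over all genes in each of 6 comparisons. The procedure was tested on simulated data in which few genes changed and the spread came from libraries other than IMA10 replicate 3. That test does not cover the fit with this library or changes across most genes. Ratios within a library were compared by exact permutation (scipy 1.17.1). Groups and replicate numbers come from the labels.

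The members and lists were chosen with earlier results of these data known. The rule for named genes took all members, the relatives in the ratio pairs, the 2 genes with the smallest p in each direction of each list in Sa minus Con, and the 3 nearest profiles of each member. After their values were seen, Prm1, Sycp1 and Sycp3 were added for their sequence elements, and Nanos2 and Nanos3 as list genes below the filter. Single germ cell markers were added for their share of a summed list, and Prkra as a relative of Tarbp2 outside the pairs, also after their values were seen. Of the listed symbols 1 had no match in the table. Alternatives were 2 other scalings, another pseudocount (0.1), a minimum of 5 FPKM or none at all, fitting the compared groups alone, a replicate block, and leaving out each library. Ratios with nothing added were tried after the values were seen.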

Additional observations from a re-analysis of the deposited data

How the results depend on the processing

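The calls of Msi1 and Cpeb1 against Con held under all 19 alternatives, while the number of lower members depended on the setting. In Sa minus Con it was 4 with median-of-ratios scaling, 5 when only the groups compared were fitted, and 0 with quantile normalization, a pseudocount of 0.1, no filter or the replicate block, against 1 as reported. In IMC minus Con it was 5 with median-of-ratios scaling or only the groups compared, 1 with quantile normalization or no filter, and 0 with the replicate block, against 2. In IMA10 minus Con it was 5 with median-of-ratios scaling and 0 with only the groups compared, against 3. Elavl1 turned round with median-of-ratios scaling, to -0.0859 in Sa, -0.26 in IMC and -0.18 in IMA10, and with quantile normalization to -0.00434 in IMC. The cause was not tested.

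Over all genes, the lower count in Sa minus Con was 6060 with median-of-ratios scaling, 4514 with quantile normalization and 4736 of 14798 with only the groups compared. It was 2523 with a pseudocount of 0.1, 3528 of 21798 with no filter and 2481 with the replicate block. The count as reported was 2963 of 15472. In IMC minus Con the lower count was 6276 with median-of-ratios scaling, 5013 of 14782 with only the groups compared and 4923 with quantile normalization. No filter gave 4140 of 21798 and the replicate block 2917, against 3603 as reported. In IMA10 minus Con it was 5736 with median-of-ratios scaling and 1834 of 13981 with only the groups compared, against 3694. Between busulfan groups, 1 gene was higher in IMC minus Sa and 1 in IMA10 minus Sa with a pseudocount of 0.1 or no filter, and 1 was lower in IMA10 minus Sa with no filter. Of the list genes in Sa minus Con, 16 rose with median-of-ratios scaling and 24 with quantile normalization, and 44 fell with median-of-ratios scaling and with only the groups compared.

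Leaving out each library in turn, the lower members numbered 0 to 5 in Sa minus Con, IMC minus Con and IMA10 minus Con, and 0 to 6 in IMA10 minus Sa. Higher members numbered 3 to 4 in Sa minus Con and 2 to 3 in IMC minus Con and IMA10 minus Con. In Sa minus Con the lower count was 5 without IMA10 replicate 3, 3 without IMA10 replicate 1 and 0 without any other library. In IMC minus Con it was 5 without IMA10 replicate 1 or 3, 2 without IMA10 replicate 2, and 0 or 1 otherwise. In IMA10 minus Con it was 5 without IMA10 replicate 3, 0 without IMA10 replicate 1 or 2, 1 without Con replicate 1 or 3, 2 without Con replicate 2 and 3 otherwise. All genes lower ranged from 1954 to 4623 in Sa minus Con, 2247 to 4964 in IMC minus Con, 2178 to 5401 in IMA10 minus Con, 0 to 3801 in IMA10 minus Sa and 0 to 2 in IMA10 minus IMC. All genes higher ranged from 6317 to 7958 in IMA10 minus Con and 0 to 1138 in IMA10 minus Sa. List genes lower in Sa minus Con ranged from 17 to 39 and higher from 34 to 44.

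Replicate numbers gave no clear sign of pairing. Of 18 same-numbered pairs 5 correlated above 0.1 (range -0.77 to 0.55), and 1 library correlated best with its own number. These are correlations of deviations from group means of 3 libraries, so they cannot exclude pairing. Under the replicate block Papolb in Sa was at an adjusted p of 0.0712 and Ybx2 in IMC at 0.061.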
